A study of Mus musculus with 8 samples.

Results

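Nuclear factor I (NFI) proteins are a family of transcription factors, and the regions described here held ChIP-seq peaks of NFIB and NFIX but none of NFIA in mouse cerebellar granule neuron progenitors. The 6 deposited lists were joined wherever peaks shared 1 bp or more, which gave 46070 regions. A region was kept when it held a peak of both NfiB libraries, a peak of at least 1 NfiX library and no peak of either NfiA library. This left 1167 regions, 2.53% of the total, called members below. The members were chosen by the peak calls of all 6 libraries, so their peak strengths and counts are a description. Absence of an NfiA peak means that none was called, not that NFIA was absent.

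The cells came from the cerebellum at postnatal day 7. Each of NFIA, NFIB and NFIX was precipitated once from CD1 mice and once from mice of a Mixed background, which the labels liken to outbred CD1, so each group held 2 libraries. No genotype or treatment is labelled. The NFIA antibody was Abcam ab41851 and the NFIX antibody Sigma Aldrich SAB1401263. For NFIB the sample labels give Novus Biologicals NBP1-81000 and the series design text gives Sigma HPA003956. Nothing says that libraries came from separate animals, so a spread over libraries, and any p-value made from it, may be technical. Peak lists hold no RNA level, so the labelled cell type could not be checked against its markers, and sequencing depth was not known. The 2 input samples were not analysed here. The lists held from 7497 peaks (NfiX CD1) to 36431 peaks (NfiB CD1), with 16993 in NfiA CD1 and 23541 in NfiA Mixed.

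NFI proteins bind DNA as dimers. Each subunit contacts one arm of a palindrome made of TGGC and GCCA, and a single arm is bound more weakly. In the postnatal cerebellum the family is known for its part in granule neuron differentiation, including migration, axon growth and dendrite formation.

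Windows reaching 50 bases to each side of the NfiB CD1 summit show the DNA under the members. They could be read only where they lay inside an annotated exon, from transcript sequences of GENCODE vM21 on build GRCm38 (mm10), which gave 68 windows. The first 5 are shown because they hold NFI letters, in capitals: the palindrome TGGCNNNNNGCCA or the single element TTGGCA, on either strand. The window nearest to Cop1, a ubiquitin ligase gene, lies in an exon of the noncoding gene 4930562F17Rik and is the only one of the 68 with the palindrome. The window nearest to Ddx19a lies in coding sequence of the sialyltransferase gene St3gal2 and holds 3 single elements.
Cop1, chr1:159165745-159165845, plus strand: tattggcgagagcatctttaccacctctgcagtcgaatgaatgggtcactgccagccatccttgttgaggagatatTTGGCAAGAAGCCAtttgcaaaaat
St3gal2, chr8:110967445-110967545, plus strand: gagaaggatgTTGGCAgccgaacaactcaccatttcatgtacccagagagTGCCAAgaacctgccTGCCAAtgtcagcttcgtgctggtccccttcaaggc
Plppr4, chr3:117326712-117326812, plus strand: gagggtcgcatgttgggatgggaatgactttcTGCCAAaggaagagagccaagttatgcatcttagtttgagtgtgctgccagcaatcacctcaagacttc
Cxxc4, chr3:134240402-134240502, plus strand: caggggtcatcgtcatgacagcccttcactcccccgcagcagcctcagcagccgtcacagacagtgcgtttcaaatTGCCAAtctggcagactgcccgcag
Plxna2, chr1:194658741-194658841, plus strand: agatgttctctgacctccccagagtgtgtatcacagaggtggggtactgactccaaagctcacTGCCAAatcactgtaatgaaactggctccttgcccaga

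Other member windows held no NFI letters. The next 2 are shown because they hold an E-box, the element bound by basic helix-loop-helix factors, in capitals (CAGATG in the kinase gene Dyrk1a, CAGCTG in the secretogranin gene Scg2). The window in Lama2, a laminin gene, holds neither kind of letters although its NfiB CD1 peak was among the strongest.
Dyrk1a, chr16:94659577-94659677, plus strand: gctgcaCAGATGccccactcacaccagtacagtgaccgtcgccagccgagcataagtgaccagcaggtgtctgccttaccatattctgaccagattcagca
Scg2, chr1:79436848-79436948, plus strand: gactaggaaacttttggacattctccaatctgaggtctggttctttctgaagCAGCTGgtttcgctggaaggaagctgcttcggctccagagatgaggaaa
Lama2, chr10:27054584-27054684, plus strand: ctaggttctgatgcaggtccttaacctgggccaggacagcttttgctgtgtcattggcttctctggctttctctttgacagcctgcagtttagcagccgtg

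For comparison, 2 windows are shown from regions with peaks of all 6 libraries, chosen as the strongest exonic windows with the palindrome, which is in capitals. The window 23.9 kb from the start of Cse1l had folds of 22.2 to 30.8 over the 6 libraries, and the window whose nearest protein-coding gene is Gm11146 had folds of 9.79 to 17.9.
Cse1l, chr2:166951422-166951522, plus strand: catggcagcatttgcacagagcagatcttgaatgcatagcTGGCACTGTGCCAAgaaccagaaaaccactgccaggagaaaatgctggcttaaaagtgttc
Gm11146, chr16:77414710-77414810, plus strand: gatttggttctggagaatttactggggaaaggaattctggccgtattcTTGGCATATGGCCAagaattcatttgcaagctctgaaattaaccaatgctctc

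The last 4 sequences are promoters taken from RefSeq on GRCm38.p6, shown because the NfiB CD1 summit of a member lay in them and their genes act in neurons or glia. Only bases before the gene's start that overlap no annotated UTR are printed, on the strand of the gene. The printed bases may therefore leave out the summit, and the Dcx summit lay in an annotated UTR. Prdm8 encodes a transcriptional regulator of the PR domain family and is the one of the 4 with an NFI element, in capitals. Sema6d encodes a semaphorin of axon guidance, Hopx a homeodomain-only protein found in glia and progenitors, and Dcx the microtubule-binding doublecortin of migrating neurons.
Prdm8, chr5:98180619-98180868, plus strand: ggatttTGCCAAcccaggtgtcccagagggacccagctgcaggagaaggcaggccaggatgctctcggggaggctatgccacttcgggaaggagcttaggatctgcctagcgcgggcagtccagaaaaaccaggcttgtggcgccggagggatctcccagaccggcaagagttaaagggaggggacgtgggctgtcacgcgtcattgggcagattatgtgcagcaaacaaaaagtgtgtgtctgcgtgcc
Sema6d, chr2:124653331-124653580, plus strand: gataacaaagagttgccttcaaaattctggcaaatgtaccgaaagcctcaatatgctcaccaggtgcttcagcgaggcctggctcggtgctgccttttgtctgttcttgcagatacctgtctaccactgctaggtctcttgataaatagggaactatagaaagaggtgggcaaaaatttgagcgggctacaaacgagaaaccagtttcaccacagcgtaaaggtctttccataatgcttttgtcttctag
Hopx, chr5:77115124-77115373, minus strand: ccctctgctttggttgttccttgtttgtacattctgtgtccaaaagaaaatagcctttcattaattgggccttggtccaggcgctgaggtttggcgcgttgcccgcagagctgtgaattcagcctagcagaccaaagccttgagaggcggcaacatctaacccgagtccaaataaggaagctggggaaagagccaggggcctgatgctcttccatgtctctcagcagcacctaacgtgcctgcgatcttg
Dcx, chrX:143933312-143933374, minus strand: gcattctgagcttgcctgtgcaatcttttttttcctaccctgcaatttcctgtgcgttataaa

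Most members rested on 1 NfiX library. Of the 1167 members, 1089 (93.3%) had an NfiX peak in Mixed only, 34 in CD1 only and 44 in both. The NfiX CD1 list was the shortest. Applied without the NfiX Mixed library, the rule left 77 regions, and applied without the NfiA Mixed library it gave 4615. With every list shortened to its 7497 peaks of highest −log10 p, 142 regions fulfilled the rule, and 0 of the 1167 members overlapped them.

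Members were the minority that lacked NFIA among regions shared by NFIB and NFIX. Of 16983 regions with both NfiB libraries and at least 1 NfiX library, 6.87% had no NfiA peak. The share was 0.681% (44 of 6460) where both NfiX libraries had a peak, 10.6% (1089 of 10304) with NfiX Mixed only and 15.5% (34 of 219) with NfiX CD1 only. With these regions in 10 equal groups by NfiB CD1 fold, it fell from the lowest to the highest group from 21.7% (95% Wilson interval 19.8 to 23.7) to 0.0588% (0.0104 to 0.332). Along NfiB Mixed fold it went from 23.4% to 0 of 1699 regions, which allows up to 0.177%. Along NfiX Mixed fold it went from 14.3% to 0.0596%. Missing NfiA peaks were thus concentrated in the weakest regions by each of these 3 libraries, and no test is given because the rule used the peak calls.

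**Figure D1:**
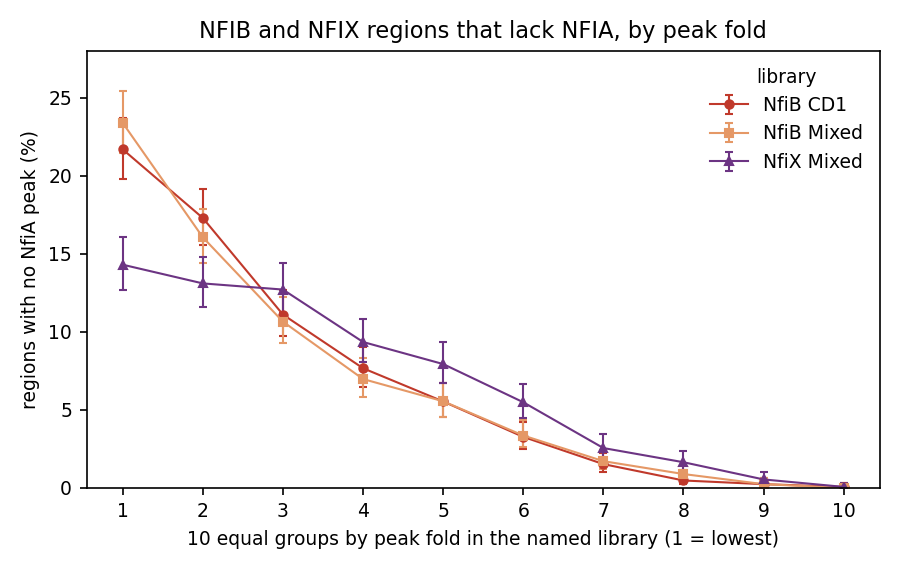
Share (%) of regions with both NfiB libraries and at least 1 NfiX library that had no NfiA peak, in 10 equal groups by peak fold in NfiB CD1, NfiB Mixed or NfiX Mixed (points, with bars for 95% Wilson intervals). All 3 curves fall from left to right, for NfiB CD1 from 21.7% to 0.0588%.

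The authors' fold enrichment at the summit gives the strength of a peak over local background. Over the members the median NfiB fold was 5.29 in CD1 and 5.05 in Mixed, and the median NfiX fold was 5.39 in CD1 (78 peaks) and 4.88 in Mixed (1133 peaks). Regions of all 3 factors (both NfiB, at least 1 NfiA and at least 1 NfiX library, 15816 regions) had medians of 8.34, 7.73, 6.11 and 6.51. The members thus had the lower median in each of the 4 libraries. Regions of NFIA and NFIB without NFIX (4624) had NfiB medians of 5.52 and 4.86, and regions of NFIB alone (4484) had 4.40 and 4.09. A single member, whose nearest gene is Gm10184, reached 10-fold in both NfiB libraries, against 3636 regions of all 3 factors. Members with both NfiX libraries had a median NfiB CD1 fold of 6.36, against 5.21 with NfiX Mixed only and 6.17 with NfiX CD1 only.

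Most of the strongest members were intergenic or in introns, as were members in general (43.9% intergenic, 43.4% in introns of protein-coding genes). Members were ranked by the mean percentile of fold within each list over the libraries with a peak. The member of highest rank was an intergenic region at chr11:92743197-92743637 with no protein-coding start within 100 kb. Its NfiB folds were 10.5 (CD1) and 9.98 (Mixed), its NfiX Mixed fold was 8.88, and the nearest NfiA peak lay 359.6 kb away. Each value was above the median fold of its list, which was 5.76 for NfiB CD1, 5.52 for NfiB Mixed, 5.98 for NfiX CD1 and 6.03 for NfiX Mixed. The next, at chr17:89960352-89960789, lay in an intron of a noncoding gene 50.1 kb upstream of Gm10184, with folds of 10.3, 10.3 and 8.43. The third, at chr8:57546234-57546892, lay in an intron of Galnt7, which encodes a glycosyltransferase, 34.7 kb from the start of the chromatin protein gene Hmgb2, with folds of 8.95, 10.02 and 9.18. An intron of the phosphodiesterase gene Pde1c held a member at chr6:56250017-56250439 with folds of 9.65, 7.68 and 9.43. An intron of Msra, which encodes a methionine sulfoxide reductase, held one at chr14:64308482-64308836 with folds of 9.92, 9.10 and 7.68. The Msra member lay 0.914 kb from an NfiA Mixed peak of 7.12-fold.

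The other members of highest rank with 1 NfiX library also had folds above the median of each list. An intron of Zfpm2, a cofactor of GATA factors, held a member at chr15:40925758-40926256 with folds of 7.62 (NfiB CD1), 8.46 (NfiB Mixed) and 9.60 (NfiX Mixed). An intergenic region at chr4:31584249-31584503 had NfiB folds of 7.25 and 7.10 and an NfiX Mixed fold of 12.2. The region at chr3:47834842-47835211, also intergenic, had NfiB folds of 6.40 (CD1) and 12.1 (Mixed) and an NfiX Mixed fold of 11.2. These regions had no peak in NfiX CD1. The reverse held for a member at chr6:83512848-83513047 in a UTR of the smooth muscle actin gene Actg2, 5.94 kb upstream of the kinase gene Dguok. It had folds of 9.50 (NfiB CD1), 6.48 (NfiB Mixed) and 10.5 (NfiX CD1) with no NfiX Mixed peak, and it was the narrowest member at 200 bp.

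Among the 44 members with peaks of both NfiX libraries, the region at chr2:47352036-47352609 ranked highest, with no protein-coding start within 100 kb and the nearest NfiA peak 400.9 kb away. Its folds were 8.53 and 10.4 for NfiB and 6.47 and 7.14 for NfiX, CD1 before Mixed. The member with the highest NfiX folds lay 35.9 kb from the start of Fam107b, at chr2:3809702-3810075. There NfiX gave 10.7 and 15.4, both above the list medians, and NfiB 5.76 and 5.28, neither of them above. A member in an intron of Agbl4, a carboxypeptidase gene, at chr4:111494545-111494883, had 7.21 and 11.1 for NfiX, also above the medians, and 4.69 and 5.33 for NfiB, both below. An intron of Bbs9, a subunit of the ciliary BBSome complex, held a member at chr9:22760338-22760763 with NfiB folds of 10.004 and 9.10 and NfiX folds of 7.04 and 6.03. An intron of Adgrl3, an adhesion receptor of synapses, held one at chr5:81127660-81127996 with 8.99 and 9.24 for NfiB and 5.16 and 7.71 for NfiX. In these last 2, NfiB was above the list median in both backgrounds.

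Some members with both NfiX libraries had an NfiB peak above the list median in CD1 only. An intron of Rarb, the retinoic acid receptor beta gene, held a member at chr14:16738575-16738910 with an NfiB CD1 fold of 15.3 and an NfiB Mixed fold of 5.43, and with NfiX folds of 6.47 and 4.82. The member in a coding exon of Lama2, at chr10:27054490-27054818, had NfiB folds of 12.1 and 4.34 and NfiX folds of 6.52 and 7.81. Near Mmp16, a matrix metalloproteinase gene, an intergenic member at chr4:17785555-17785918 had NfiB folds of 8.59 and 5.01 and NfiX folds of 6.11 and 6.58.

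**Figure D2:**
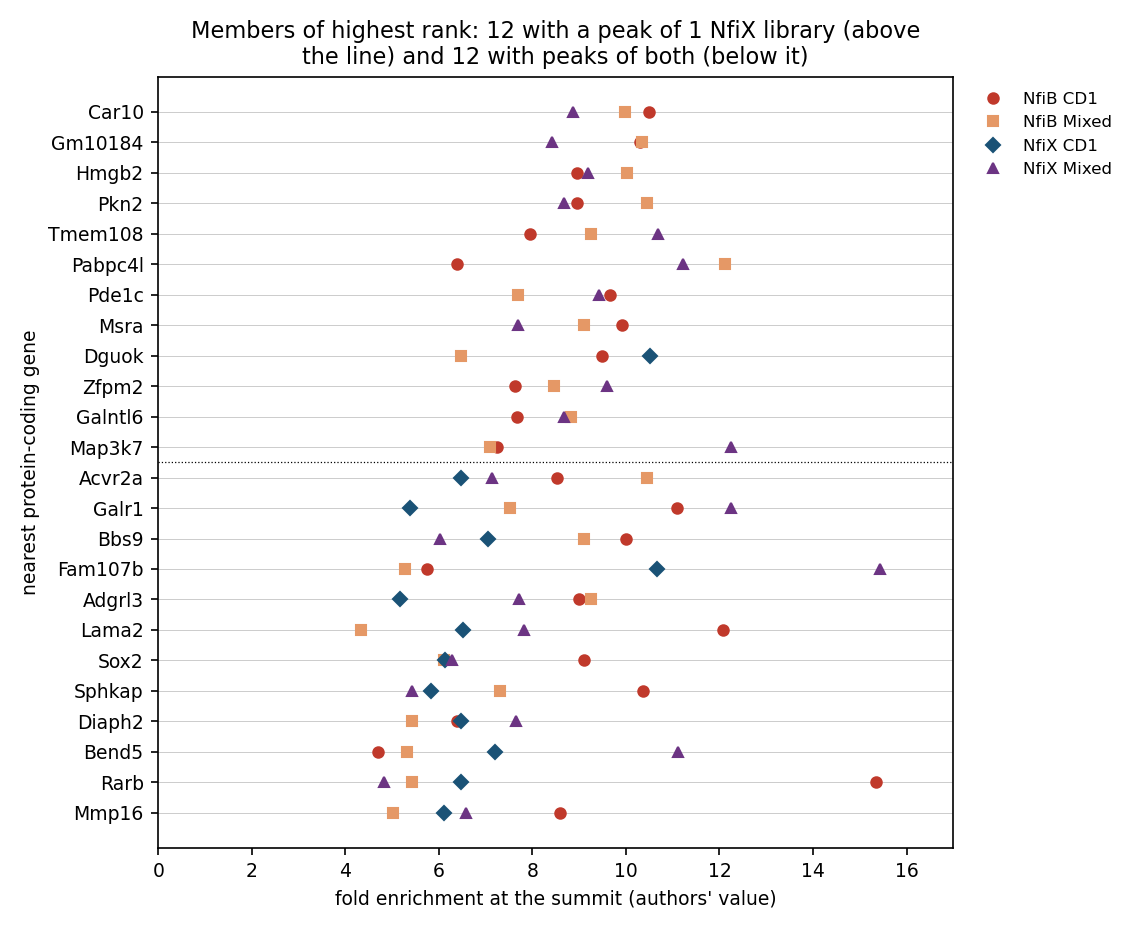
Fold enrichment at the summit (authors' value) in each library with a peak, for the 12 members of highest rank with a peak of 1 NfiX library (above the dotted line) and the 12 with peaks of both (below it), labelled by the nearest protein-coding gene at any distance. The lists were made separately, so a point is read against its own list and not against the other libraries. NfiX Mixed reaches 15.4 at Fam107b and NfiB CD1 15.3 at Rarb.

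NfiA peaks lay close to some members. The nearest NfiA peak was at a median distance of 16.8 kb, from 45 bp to 1569 kb. It lay within 500 bp for 71 members, within 1 kb for 120 (10.3%, 8.67 to 12.2) and within 5 kb for 297. Of the 120, the nearest NfiA peak was of the CD1 list for 35 and of the Mixed list for 85. Its median fold was 5.20 in CD1 and 4.77 in Mixed, against 5.79 and 5.51 over the whole lists. The 3 closest members lay 45 bp (chr1:64454621-64455075, 77.7 kb upstream of Creb1), 61 bp (chr1:20905636-20906225, at the progestin receptor gene Paqr8) and 65 bp (chr12:83160704-83161144, at Rgs6, a regulator of G protein signalling) from an NfiA Mixed peak. Their NfiB and NfiX folds were 3.46 to 5.86.

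Just outside the rule were 4012 regions of both NfiB and at least 1 NfiX library with a single NfiA peak. The weakest such NfiA peak, at q = 0.0479, lay in a UTR of Tm9sf4 (chr2:153161122-153161488) with an NfiA Mixed fold of 2.08, beside 4.78, 2.43 and 4.99 in NfiB CD1, NfiB Mixed and NfiX Mixed. An intron of Dgkz, which encodes a diacylglycerol kinase, held the next (chr2:91947573-91948032, q = 0.0392, fold 2.17), 2.69 kb from a member at the Dgkz promoter. The last lay in an intron of Dgkg (chr16:22527303-22527995, q = 0.0265, fold 2.70).

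**Figure D3:**
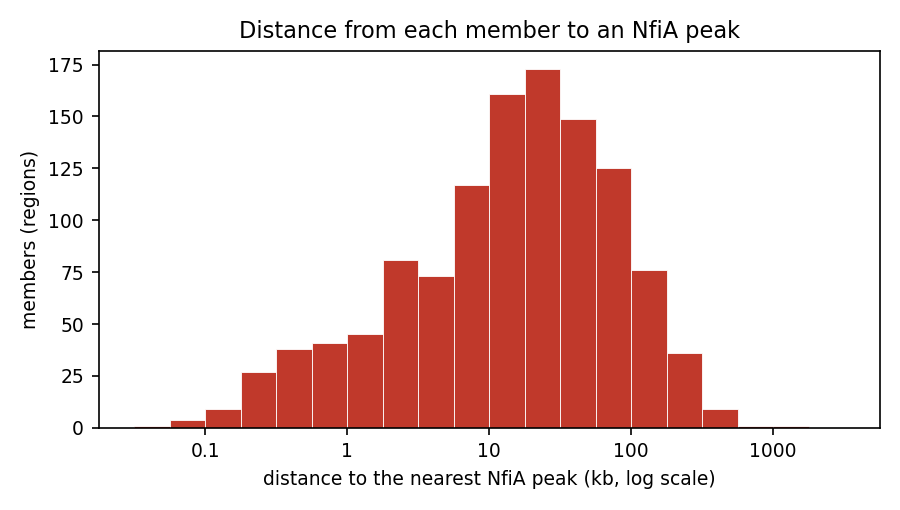
Number of members by distance from the region's edge to the nearest NfiA peak (kb, log scale). Most members lie between 1 and 100 kb from an NfiA peak, with 120 at 1 kb or less.

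Members were rarely at promoters. A promoter was a summit within 1 kb of a protein-coding transcription start site (TSS), and 46 members qualified (3.94%, 95% Wilson interval 2.97 to 5.22). Introns of protein-coding genes held 506 members (43.4%) and 512 (43.9%) were intergenic. The promoter share was 4.19% for regions of all 3 factors, 2.46% for regions of all 6 libraries, 9.73% (8.91 to 10.6) for NFIA and NFIB without NFIX and 18.6% (17.5 to 19.8) for NFIB alone. Over the 4 NfiB and NfiX libraries, each with its own summits, members minus regions of all 6 libraries gave 0.842 ± 1.303 percentage points (SD, n = 4, exact two-sided sign-flip permutation p = 0.25). Members minus regions of all 3 factors gave -0.46 ± 0.434 points (n = 4, exact permutation p = 0.13, the smallest that 4 libraries allow). The libraries share regions, so these p-values describe only the choice of summit and of the regions that each library called. The NfiX CD1 summits rested on 78 members with a share of 1.28%. Their difference from regions of all 6 libraries was -1.11 points, against 1.41 to 1.58 points in the other libraries.

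The promoter share depended on peak strength. All regions with both NfiB libraries were put into 4 equal groups by NfiB CD1 fold. The lowest group held 39.6% of the members and had the highest promoter share in each set. There 6.28% of members (29 of 462, 4.41 to 8.87) were promoters. The others stood at 13.7% (12.2 to 15.4) for all 3 factors, 20.7% (18.8 to 22.8) for NFIA and NFIB without NFIX and 28.3% (26.6 to 29.97) for NFIB alone. In this group the interval of the members lay below that of each of the other 3 sets. In the next group members were at 2.68% (12 of 448, 1.54 to 4.62), also below the 5.88% (5.11 to 6.76) of all 3 factors. There their interval overlapped those of NFIA and NFIB without NFIX (5.02%, 4.06 to 6.19) and of NFIB alone (3.50%, 2.63 to 4.65). In the groups of higher fold members were at 1.75% (0.681 to 4.40) and 3.57% (0.633 to 17.7). Those intervals overlapped that of each other set. The shares that follow were not split by fold, although both promoters and missing NfiA peaks were more frequent at low fold. Among NFIB regions with NFIX, NFIA was missing about as often at promoters (6.49%, 4.90 to 8.55) as elsewhere (6.89%, 6.51 to 7.29). Among NFIB regions with NFIA, NFIX was missing at 40.4% of promoters (37.6 to 43.3) and at 21.6% (21.02 to 22.2) of other regions.

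**Figure D4:**
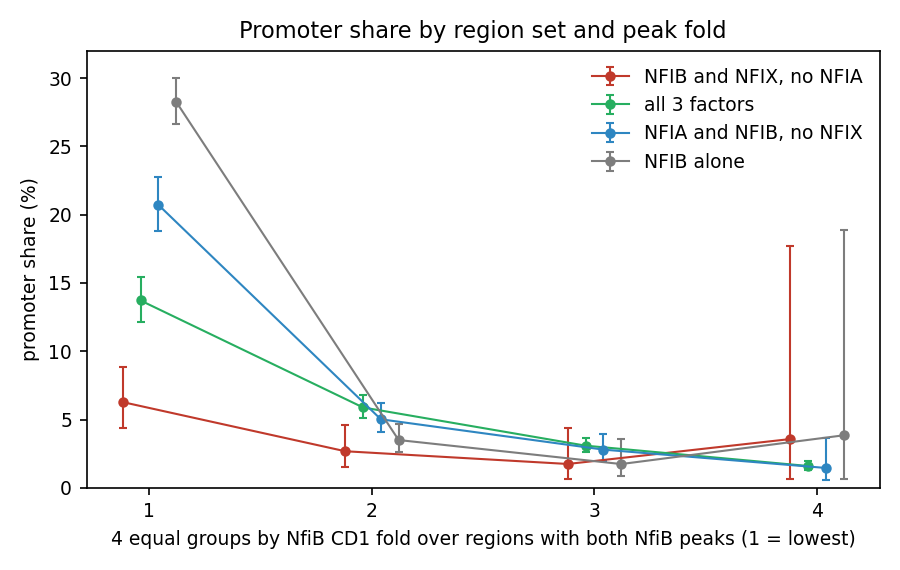
Promoter share (%) in 4 sets of regions in 4 equal groups by NfiB CD1 fold, made over all regions with both NfiB libraries (points, with bars for 95% Wilson intervals). Members lie lowest in the group of lowest fold at 6.28%, and their interval is wide in the group of highest fold, which holds 28 members.

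The 8 promoter members of highest rank had an NfiX peak in Mixed only. The promoter of Dgkz (chr2:91950710-91951104, 0.454 kb upstream of the TSS) had folds of 7.13 (NfiB CD1), 5.29 (NfiB Mixed) and 6.21 (NfiX Mixed). At Dcx (chrX:143932808-143933366), whose sequence is given above, they were 8.55, 3.90 and 6.17, with an NfiA Mixed peak 0.711 kb away. The Sema6d promoter (chr2:124653187-124653499) had 4.93, 6.63 and 5.72. Dgkz and Dcx were above the list medians in NfiB CD1 and NfiX Mixed, and Sema6d was above in NfiB Mixed. Prdm8 (chr5:98180625-98181041) had 6.28, 6.18 and 4.32. Further ones were Rnmt, an mRNA cap methyltransferase gene, Pdia6, a disulfide isomerase gene, and Mat2b, a subunit of methionine adenosyltransferase, with folds of 4.21 to 9.67. The Hopx promoter (chr5:77115192-77115490) had 5.65, 3.07 and 4.38. Housekeeping gene promoters with a member included those of Actb (4.27, 3.10 and 4.52) and Hspa8 (2.96, 4.10 and 2.76). Plekha6 was the 1 promoter with both NfiX libraries (NfiB 3.21 and 5.59, NfiX 5.07 and 3.08).

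Summits of NFIB and NFIX lay close together within members, though less so than in stronger regions. The median distance between the NfiB CD1 and NfiX Mixed summits was 39 bp (quartiles 17 and 72), and 60.3% of the 1133 pairs lay within 50 bp. In regions of all 3 factors it was 26 bp and in regions of all 6 libraries 20 bp. The 2 NfiB libraries, which share a factor, differed by 34 bp in members, 25 bp with all 3 factors, 32 bp for NFIA and NFIB without NFIX and 38 bp for NFIB alone. Across the 4 pairs of an NfiB with an NfiX library the medians in members were 39 to 43 bp, so pairs of different factors were only a few bases wider than the NfiB pair. Members had a median width of 352 bp and regions of all 3 factors one of 503 bp, whose width also spans more peaks.

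The NFI palindrome was rare under member summits, while the single element was more frequent than in their flanks. The palindrome was found in 1 of 68 exonic windows of members (1.47%, 95% Wilson interval 0.26 to 7.87), the window near Cop1 printed above. It was found in 11.6% of windows (9.50 to 14.1, 87 of 750) of all 3 factors, 25.7% (20.3 to 31.9, 55 of 214) of all 6 libraries, 3.59% (2.11 to 6.05, 13 of 362) of NFIA and NFIB without NFIX and 1.26% (0.578 to 2.72, 6 of 477) of NFIB alone. Regions of all 3 factors stood at 9.43% (5.80 to 14.98) in the lowest of the 4 groups by NfiB CD1 fold and 10.9% in the highest. The interval of the members overlaps that of this lowest group. Regions of all 6 libraries stood at 16.7% (1 of 6), 53.8% (7 of 13), 41.1% (30 of 73) and 13.9% (17 of 122) from the lowest to the highest group. A link of the low member share with peak strength was not tested.

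Over the 4 libraries, members minus regions of all 6 libraries gave -24.98 ± 1.80 percentage points for the palindrome (SD, n = 4, lower in 4 of 4, exact two-sided sign-flip permutation p = 0.13, the smallest possible). Against regions of all 3 factors the difference was -15.2 ± 7.46 points (n = 4, lower in 4 of 4, exact permutation p = 0.13). The libraries share regions, so these p-values describe only the choice of summit and of the regions that each library called. The NfiX CD1 summits gave only 6 member windows, and -26.3 points against all 3 factors. There the other libraries lay between -12.6 and -10.1 points. The low share did not hold under every rule: by the CD1 libraries alone 3 of 17 windows (17.6%) held the palindrome. Without the NfiB Mixed library 6 of 89 (6.74%) held it, still inside the interval of the reported member share. Control arms 8 bases apart (TGGCNNNNNNNNGCCA) were found in 1 of 68 member windows and in 0.267% of those of all 3 factors.

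The single element TTGGCA, which can also be part of a palindrome, stood in 19 of 68 member windows (27.9%, 18.7 to 39.6). Flanking exonic windows 1 kb to each side of the members that touched no peak held it at 3.96% (1.55 to 9.74, 4 windows). Regions of all 3 factors had 29.2% (26.1 to 32.6), regions of all 6 libraries 35.0% (28.97 to 41.7), NFIA and NFIB without NFIX 21.3% (17.4 to 25.8) and NFIB alone 12.2% (9.52 to 15.4). Over all folds, the member share was thus above its flanks and above NFIB alone, by intervals that do not overlap. Its interval overlaps those of all 3 factors, of all 6 libraries and of NFIA and NFIB without NFIX. The lowest group by NfiB CD1 fold held 389 of 477 windows of NFIB alone and 34 of 68 of members. Within it the shares were 20.6% (10.3 to 36.8) for members and 10.5% (7.86 to 13.99) for NFIB alone. In the next group they were 34.6% (19.4 to 53.8) and 24.3% (15.8 to 35.5). Both pairs of intervals overlap. By NfiB Mixed summits the members stood at 28.4%, against 30.7% for all 3 factors and 37.2% for all 6 libraries. By NfiX Mixed summits they stood at 20.3%, against 29.6% and 37.2%. Over the 4 libraries, members minus regions of all 6 libraries gave -18.04 ± 14.8 percentage points (SD, n = 4, lower in 4 of 4, exact two-sided sign-flip permutation p = 0.13, the smallest possible). Against regions of all 3 factors the difference was -12.9 ± 17.6 points (n = 4, lower in 4 of 4, exact permutation p = 0.13). NfiX CD1, with TTGGCA in 0 of 6 member windows, gave -39.4 and -38.8 points in these comparisons. The other libraries lay between -16.9 and -7.11 points and between -9.31 and -1.26 points. As for the palindrome, the libraries share regions. These p-values describe only the choice of summit and of the regions that each library called.

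Other elements were searched at NfiB CD1 summits. The E-box CAGATG was in 22.1% of member windows (13.8 to 33.3) against 8.91% (4.76 to 16.1) of flanks, and CAGCTG in 14.7% (8.19 to 24.997) against 7.92% (4.07 to 14.9). Both pairs of intervals overlap. The Sox element ACAAAG was in 7.35% of member windows (3.18 to 16.1) and 12.9% of flanks (7.68 to 20.8). The Zic element CAGCAGG was in 7.35% (3.18 to 16.1) and 1.98% (0.545 to 6.93). These intervals overlap as well. At summits of all 3 factors CAGATG was in 23.3% of windows, CAGCTG in 21.2%, the Sox element in 6.27% and the Zic element in 7.2%.

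NfiB CD1 summits of members fell in 19 RefSeq promoter windows, which run from 250 bases before to 50 after a gene's start and include noncoding genes. TTGGCA was in 4 of the 19 (21.1%, 8.51 to 43.3), against 14.1% of all 32851 RefSeq promoter windows. None held the palindrome, which allows a share of up to 15.8%, and 0.807% of all promoter windows held it.

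**Figure D5:**
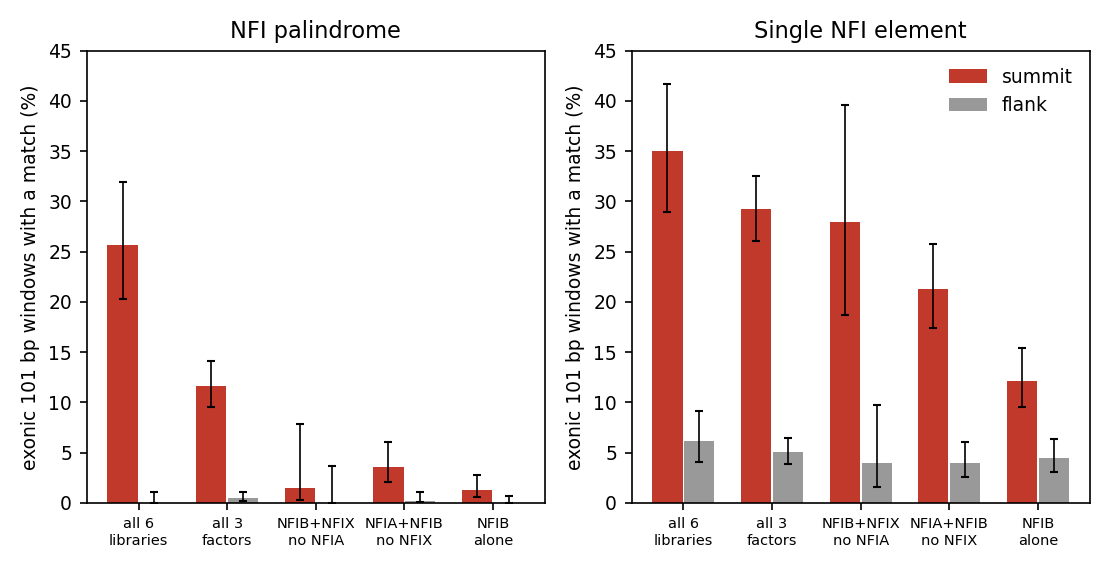
Share (%) of exonic windows with the NFI palindrome (left) or the single NFI element (right) at NfiB CD1 summits and in flanking windows, for 5 sets of regions (bars, with 95% Wilson intervals). In members the palindrome stands at 1.47% and the single element at 27.9%.

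Members were spread over many genes. Within 100 kb of a TSS lay 720 members (61.7%), and their nearest protein-coding genes numbered 658, which is 3.01% of the 21842 protein-coding genes. A nearest gene is a neighbour and not a shown target. Of these genes 604 had 1 member, 46 had 2 and 8 had 3. Most also neighboured NFIA: 522 (79.3%) were nearest to a region with an NfiA peak elsewhere, against 33% of all protein-coding genes, and 136 were not.

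The 8 genes with 3 members included Lama2, Plekha6, Map4k3, Kcnma1, Hipk2, Soga1 and Gse1. These had regions with NfiA as well, from 2 at the kinase gene Hipk2 to 22 at Gse1. The 3 Lama2 members lay in a coding exon, in an intron (NfiB 9.65 and 6.11, NfiX Mixed 4.98) and 14.4 kb upstream (5.97, 5.01 and 5.10). The intronic one was 0.359 kb from an NfiA CD1 peak. Kcnma1, which encodes a calcium-activated potassium channel, had members with NfiB CD1 folds of 6.82, 5.85 and 3.36, the last 0.254 kb from an NfiA Mixed peak of 9.02-fold. At Soga1 all 3 lay in introns, with NfiB and NfiX folds of 3.19 to 5.50.

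Gene lists for the tissue were described by counts. Of 275 genes in 19 lists, 35 (12.7%) had a member, against 3.01% of all protein-coding genes. The same genes were also above the background for the other sets. Of the 275, 113 (41.1%) were nearest to a region of NFIA and NFIB without NFIX, against 11.6% of all protein-coding genes, and 178 (64.7%) to a region of all 3 factors, against 23.5%. In every list with a member, more genes had a region of all 3 factors than had a member. Those with all 3 factors were 25 of 31 axon guidance genes and 18 of 24 neuronal migration genes. For Sonic hedgehog, lineage factor and synapse genes they were 9 of 16, 10 of 16 and 18 of 28. Cell adhesion genes had a member most often, 9 of 30, and 26 of the 30 also had a region of all 3 factors. They were the cadherins Cdh4 and Cdh11, the protocadherins Pcdh7, Pcdh10 and Pcdh15, the neural adhesion genes Ncam1, Nfasc and Cntn4, and the teneurin Tenm4. The Pcdh15 intronic member had folds of 8.14, 3.403 and 6.75 (NfiB CD1, NfiB Mixed, NfiX Mixed), and that of Tenm4 7.64, 5.96 and 4.10.

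Axon guidance genes had a member in 5 of 31 cases (Dcc, Epha3, Epha4, Robo1 and Sema6d). An intron of Robo1, a Slit receptor gene, held the strongest at chr16:72553635-72554062, with folds of 12.7, 6.29 and 5.77. The ephrin receptor gene Epha4 held an intronic member with 6.70, 5.94 and 5.76, and Epha3 one with 6.87, 6.27 and 5.36. All 3 were above the list medians in both NfiB libraries and below it in NfiX Mixed. Neuronal migration genes had a member in 4 of 24 cases (Astn2, Cntn2, Dcx and Plxna2). The Astn2 member, in an intron of this astrotactin gene, had 7.11, 5.76 and 4.60. At Plxna2, a plexin gene, NfiX was called in CD1 only, with folds of 8.99 (NfiB CD1), 4.10 (NfiB Mixed) and 3.84 (NfiX CD1). The member nearest to Cntn2 lay in an intron of Nfasc.

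Sonic hedgehog signalling drives the division of granule neuron progenitors, and 3 of its 16 listed genes had a member. The Gli3 member, in an intron, had peaks of all 4 NfiB and NfiX libraries (NfiB 5.16 and 5.11, NfiX 5.80 and 4.60, CD1 before Mixed). Upstream of Gli2 the folds were 5.37, 4.31 and 4.20, and upstream of the receptor gene Ptch1 4.79, 3.58 and 4.32 (NfiB CD1, NfiB Mixed, NfiX Mixed). All were below the median folds of their lists. Among lineage factors Etv1, En1, Pbx3 and Zic4 had a member (4 of 16). An intron of Etv1, an ETS factor gene, gave 4.69, 5.87 and 9.19, and the member 25.1 kb from En1, an engrailed homeobox gene, 7.41, 6.92 and 4.05. At Zic4 NfiX was called in CD1 only (5.76, 3.95 and NfiX CD1 4.94). Of 18 basic helix-loop-helix genes Nhlh2 and Tcf4 had members, and Tcf4, the E protein partner of neural factors, had 2.

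Synapse genes had a member in 4 of 28 cases (Cbln1, Grik2, Lrrtm3 and Nrxn3). Upstream of the kainate receptor gene Grik2 the folds were 8.53, 5.85 and 5.61, and in an intron of Cbln1, which encodes the cerebellin that granule neurons secrete, they were 3.34, 3.88 and 3.22. Of 24 ion channel genes Kcnma1 and Cacna1c had members, and of 20 Wnt and Notch genes Wnt5a. Hopx was the 1 gene of 6 glial markers. No member was nearest to the 4 NFI genes, the 10 granule neuron progenitor markers, the 22 cell cycle genes or the 20 ribosomal protein genes, of which 4, 7, 10 and 4 had a region of all 3 factors. The same held for the 5 oligodendrocyte, 4 Purkinje cell, 3 interneuron, 3 microglia and 3 endothelial markers. The background of 3.01% corresponds to less than 1 gene in each of these lists.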

How the data were processed

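ChIP-seq libraries of NFIA, NFIB and NFIX were compared in cells of postnatal day 7, with 2 libraries per factor. Per the submitters' processing notes, the build was mm10 and the tools were MACS2 2.1.0, Bowtie2 2.2.6 and SAMtools 1.4.1. Neither the peak threshold nor the role of the input samples is given in the sources used here. Peaks were deposited separately for each library, not for pooled libraries. The deposited fold enrichment is a ratio at the summit over local background. The deposited −log10 p and −log10 q values came from the authors' peak caller. They served to filter peaks, to choose the peaks kept in shortened lists (by p) and to order the regions just outside the rule (by q). Each list also gives the authors' summit offset in bases, and the deposited score was not used. Folds served to describe and rank peaks within 1 list and were read against the median of that list. Depth is unknown, and intervals cover counting error only.

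Peaks were merged over the 6 lists with Python 3.11.15, NumPy 2.4.6 and pandas 2.3.3. The highest-fold peak of a library stood for it in a region, and the NfiB CD1 summit set position. Genes came from GENCODE vM21, with nearest TSSs taken up to 100 kb. Transcripts were used for motifs because no genome sequence was used here, and 13 motifs were searched on both strands. Sets were described with 95% Wilson intervals, and library means with exact sign-flip permutations. Named genes are the 12 highest members with both NfiX libraries, the 12 highest others, the 8 highest at promoters, the 6 genes nearest to most members, the 2 highest per gene list, the 3 closest to an NfiA peak and the 3 just outside. Some members that fall under this rule are not reported here. Actb, Hspa8, the other list genes and the printed sequences were chosen after their values were seen. The members and lists were chosen with earlier results of these data known. Merging, the rule and the motif search were tested on simulated data. Alternatives covered peak overlap, q-value, list length, background, promoter width and leaving out each library.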

Additional observations from a re-analysis of the deposited data

How the results depend on the processing

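Of 122 alternative values 59 moved: 9 of 14 for the count of regions, 8 of 21 for the promoter share, 8 of 17 for the palindrome share and 2 of 14 for the TTGGCA share. Counts are called moved when they differ by more than 1.5 times, shares when they leave the 95% interval of the reported value, and medians when they move by more than 1 SD over libraries or pairs. The cause of a move was not tested. No paired analysis was possible because replicate numbers only name the CD1 and Mixed libraries and the values come from no fitted model, so the rule within each background stands in its place.

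With windows of 100 bp to each side of summits merged, the share within 1 kb of an NfiA peak was 12.6% and the palindrome share 0% (0 of 65). With −log10 q of 5 or more in all lists, 995 regions fulfilled the rule, and only 545 of the 1167 members (46.7%) overlapped them. A count that is not called moved can therefore rest on other regions. Over the 995 regions the median NfiB CD1 fold was 5.89, the summit distance 36 bp and the share within 1 kb 7.54%. With that limit for NfiB and NfiX alone, 545 regions near 321 genes were left, with a median fold of 5.76, a summit distance of 35 bp and a palindrome share of 0% (0 of 29). With equal list lengths, 142 regions near 87 genes fulfilled the rule, none of them overlapping a member. Their median fold was 9.90, their summit distance 19 bp, their share within 1 kb 4.23%, their palindrome share 0% (0 of 9) and their TTGGCA share 11.1%. With both NfiX libraries required, 44 regions near 24 genes were left, with a median fold of 6.36, a summit distance of 55.5 bp, a promoter share and a share within 1 kb of 2.27% each, and palindrome and TTGGCA shares of 0% (0 of 3).

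By the CD1 libraries alone, 484 regions near 265 genes fulfilled the rule, with a median fold of 6.40, a promoter share of 2.89%, a summit distance of 33 bp, a share within 1 kb of 3.93% and a palindrome share of 17.6% (3 of 17). These CD1 regions overlapped 78 of the 1167 members (6.68%). By the Mixed libraries alone 2406 regions near 1258 genes fulfilled the rule, and 1130 members overlapped them. Promoters of 5 kb gave a share of 10.8%, start sites of all gene types 8.997%, and the 4 groups by NfiB CD1 fold 6.28, 2.68, 1.75 and 3.57% from low to high. The palindrome share was 0% with windows of 51 bp (0 of 73) and with NfiB Mixed summits (0 of 67), and a limit of 20 kb left 290 genes.

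Leaving out 1 library in turn gave 77 (without NfiX Mixed) to 4615 regions (without NfiA Mixed) and 44 to 2309 genes. The median fold went from 5.01 (without NfiB CD1, so by NfiB Mixed) to 6.32, the promoter share from 1.299 to 5.01%, the summit distance from 35 to 43 bp, the share within 1 kb from 5.16 to 10.3%, the palindrome share from 0% (0 of 5 without NfiX Mixed) to 6.74% (6 of 89 without NfiB Mixed) and the TTGGCA share from 20 to 27.3%. Unknown depth, the short NfiX CD1 list and the 68 exonic windows limit all of these values.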
